A study of Rattus norvegicus with 6 samples.

Results

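Fatty acids are the main fuel of the heart, and the 32 genes described here carry them from the blood to their breakdown. They comprise 5 genes of uptake and activation, 4 of the carnitine shuttle, 2 that set the level of malonyl-CoA, 8 of the mitochondrial beta-oxidation cycle, 4 auxiliary enzymes for unsaturated chains, 3 of electron transfer, 2 peroxisomal enzymes, 2 thioesterases and 2 uncoupling proteins. Members were all probes of biological genes, leaving out control spots, whose gene name in the scanner files was one of these 32. All 32 were found among 26456 gene names, and they were read by 36 of 30367 probes. Left ventricles of male OLETF rats, a strain with type 2 diabetes, were compared with those of male LETO rats, their healthy control strain, with 3 rats of each at 27 or 28 weeks of age. LETO 1, 2 and 3 were 27, 28 and 28 weeks old, and OLETF 1, 2 and 3 were 27, 28 and 27 weeks old. OLETF rats are known to overeat and to lack a working cholecystokinin A receptor, and they become obese before they become diabetic. The labels give no drug, diet or transgene for either strain, so diabetes, obesity and strain background cannot be told apart.

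A long-chain fatty acid enters the cardiomyocyte with the help of CD36 and the FATP transporters, is held in the cytosol by a fatty acid binding protein and is tied to coenzyme A by an acyl-CoA synthetase. The carnitine shuttle then moves the acyl group into the mitochondrion, where each turn of beta-oxidation cuts acetyl-CoA from the chain and hands electrons to the respiratory chain. Malonyl-CoA blocks the entry step, and many genes of the pathway are known targets of the nuclear receptor PPAR-alpha. Diabetic hearts are known to lean on fatty acids more than healthy ones, and the comparison of the strains asks whether the transcripts of this pathway differ.

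Each value is the log2 intensity of a probe on a 1-colour array minus the 75th percentile of that array, so a value of 0 lies at the 75th percentile and a step of 1 is a 2-fold difference. Levels of different genes come from different probes and are not set against each other. The labels describe 3 independent experiments per strain, so the errors and p-values measure the spread between rats. One slide held the 3 LETO arrays together with OLETF 1, and a further slide held only OLETF 2 and OLETF 3, so the strain difference is in part a slide difference. Between 75.55% and 79.8% of spots were well above background on each array, and no spot was saturated. All 10 cardiomyocyte genes examined were well above background on all 6 arrays, as were all 4 atrial genes. Being above background for both lists goes with heart muscle, as labelled, but does not by itself tell ventricle from atrium. Across all 18816 genes tested 480 passed an adjusted p of 0.05 by limma with Benjamini-Hochberg adjustment, which was 2.55% of them, with 283 higher (1.5%) and 197 lower (1.05%) in OLETF.

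The measurements rest on probes of 60 bases, 1 per gene except for Cd36, Cpt1b, Hadha and Acot2, which had 2. Probes of 5 genes spanned more than 60 bases of the rn4 genome (Slc27a6, Acacb, Hadha, Etfa and Ucp2), so these cross at least 1 intron and match the spliced transcript. Sequences are shown for 4 probes on which the results below turn, in lower case with no base marked. The Eci1 probe lies at chr10:13695561-13695620 and reads the member with the lowest adjusted p. The Etfa probe is spread over chr8:59049497-59050934, a span of 1438 bases, and reads one of the 4 members whose strains did not overlap. The Cpt1b probe at chr7:127743961-127744020 and the Acot2 probe at chr6:108023141-108023200 are the further probes of those genes, read as a check on the brighter ones. The annotation of this build was not used here, so exon numbers are not given.
Eci1: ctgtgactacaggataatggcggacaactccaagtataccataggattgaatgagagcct
Etfa: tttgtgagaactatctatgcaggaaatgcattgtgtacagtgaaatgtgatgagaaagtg
Cpt1b: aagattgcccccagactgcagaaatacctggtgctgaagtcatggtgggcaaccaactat
Acot2: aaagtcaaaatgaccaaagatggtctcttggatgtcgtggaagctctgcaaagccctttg

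None of the listed members passed the test between the strains. Of the 32 members 31 were tested, and 0 of 31 had an adjusted p below 0.05 by limma, beside 2.55% of all genes (1.5% higher and 1.05% lower in OLETF). At an unadjusted p under 0.05 by limma the count was 1 of 31, the isomerase Eci1, beside 12.4% of all genes. The values lay mostly on the side of OLETF, with 25 of 31 positive and 6 negative, where 47.6% of all genes were positive. Fabp3, Cpt1b and Acacb, negative here, turned positive after quantile normalization, with or without normexp background correction, and after median scaling (28 of 31 positive), and Fabp3 also in the deposited value table (26 of 31). The median log2 difference of the members was 0.13 and that of all genes was −0.0084. The single differences ran from −0.058 for Hadha to 0.52 for Ucp3. Slc27a6, the transporter FATP6, was not tested because its probe was not well above background on any of the 6 arrays.

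**Figure D1:**
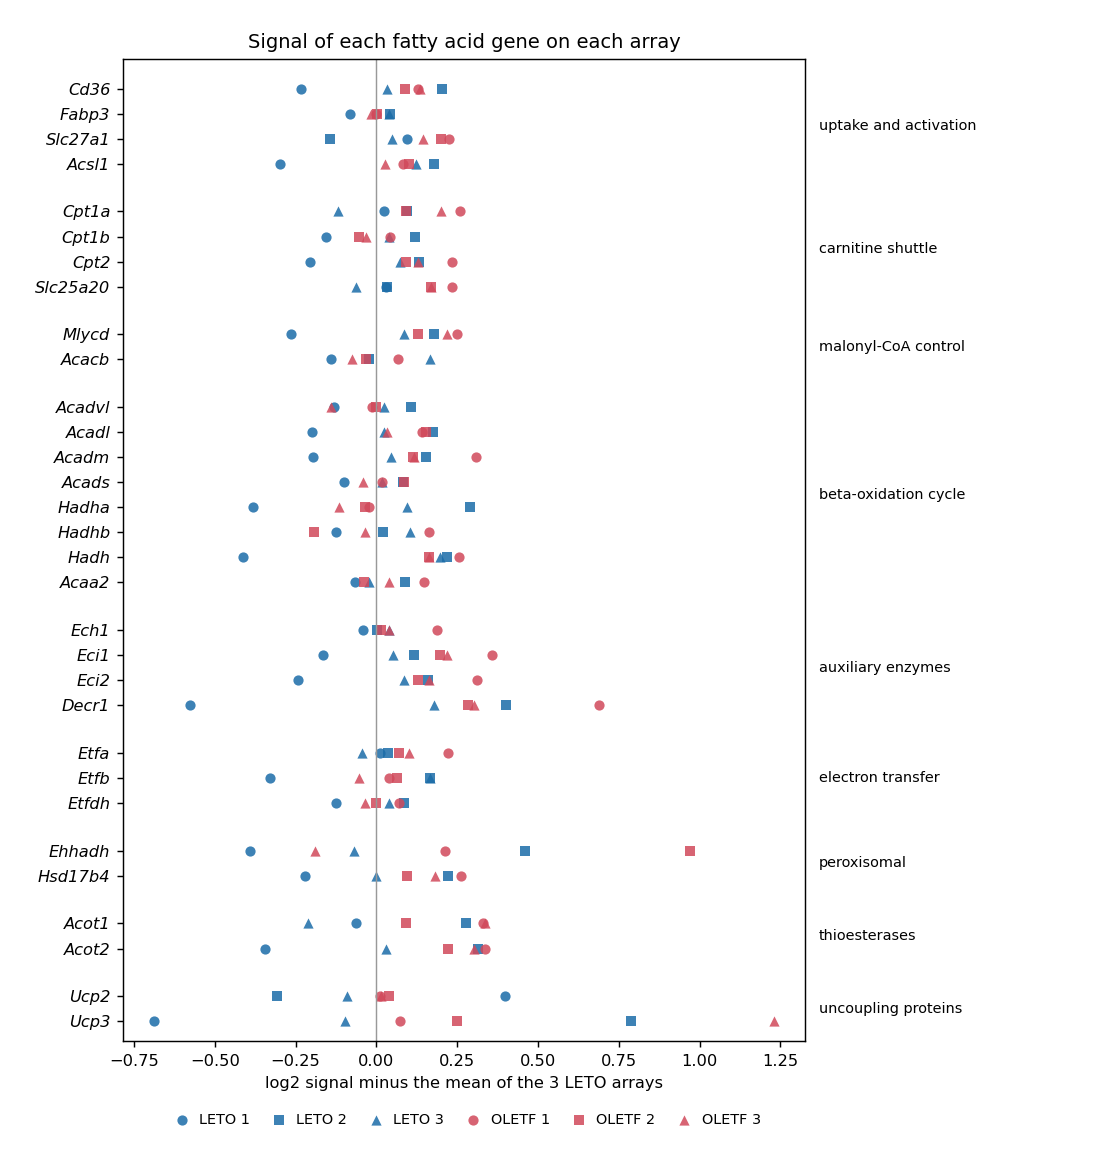
Each point is 1 array's log2 signal for 1 of the 31 tested genes, minus the mean of the 3 LETO arrays for that gene, with LETO arrays in blue and OLETF arrays in red and the symbol giving the replicate. LETO 1 is the leftmost point for 23 of 31 genes, and the OLETF points lie to the right of every LETO point only for Slc27a1, Slc25a20, Eci1 and Etfa.

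Uptake and activation genes showed small differences. Cd36, the fatty acid translocase of the plasma membrane, had 5.93, 6.37 and 6.20 in the LETO rats 1 to 3, against 6.29, 6.25 and 6.30 in the OLETF rats 1 to 3. LETO 1 was the lowest array and LETO 2 the highest, and the 3 OLETF arrays lay between them. The difference was 0.12 ± 0.12 (SE, adjusted p by limma = 0.859), and the further Cd36 probe gave 0.13 ± 0.089. Fabp3, the fatty acid binding protein of heart muscle, had 7.29, 7.41 and 7.41 in the LETO rats 1 to 3, against 7.37, 7.37 and 7.35 in the OLETF rats 1 to 3. All 6 values lay within a narrow band, and the difference was −0.0050 ± 0.081 (SE, adjusted p by limma = 0.994), one of the tightest estimates among the members. Slc27a1, the transporter FATP1, had 1.38, 1.15 and 1.34 in the LETO rats 1 to 3, against 1.51, 1.49 and 1.43 in the OLETF rats 1 to 3. All 3 OLETF arrays were above all 3 LETO arrays, and the difference between means was 0.19 ± 0.095 (SE, adjusted p by limma = 0.514). Acsl1, the main acyl-CoA synthetase of the heart, had 5.85, 6.33 and 6.27 in the LETO rats 1 to 3, against 6.23, 6.25 and 6.18 in the OLETF rats 1 to 3. LETO 1 was far below the rest, the 3 OLETF arrays lay between it and the other LETO arrays, and the difference was 0.069 ± 0.14 (SE, adjusted p by limma = 0.946).

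Of the 4 carnitine shuttle genes 3 had positive values, and none passed the test. Cpt1b, the muscle form of the outer membrane palmitoyltransferase and the entry step of oxidation, had 5.97, 6.25 and 6.17 in the LETO rats 1 to 3, against 6.17, 6.07 and 6.09 in the OLETF rats 1 to 3. The OLETF arrays lay among the LETO arrays, with a difference of −0.015 ± 0.10 (SE, adjusted p by limma = 0.984). The probe printed above gave −0.011 ± 0.11, so both Cpt1b probes put the 95% interval of the change around 0. Cpt1a, the form that the liver relies on, had −0.045, 0.027 and −0.19 in the LETO rats 1 to 3, against 0.19, 0.024 and 0.13 in the OLETF rats 1 to 3. OLETF 1 and OLETF 3 were above all LETO arrays, OLETF 2 was level with LETO 2, and the difference was 0.18 ± 0.096 (SE, adjusted p by limma = 0.540). Whether Cpt1a and Cpt1b differed from each other in their change was not tested. Slc25a20, the carrier that exchanges acylcarnitine for carnitine across the inner membrane, had 2.82, 2.83 and 2.73 in the LETO rats 1 to 3, against 3.03, 2.96 and 2.96 in the OLETF rats 1 to 3. All 3 OLETF arrays lay above all LETO arrays, and the difference was 0.19 ± 0.081 (SE, adjusted p by limma = 0.406). Its 95% interval ran from −0.00073 to 0.38, just including 0. Cpt2, which rebuilds the acyl-CoA inside the mitochondrion, had 3.74, 4.08 and 4.02 in the LETO rats 1 to 3, against 4.18, 4.04 and 4.08 in the OLETF rats 1 to 3. LETO 1 was far below the rest and LETO 2 lay within the OLETF values, with a difference of 0.15 ± 0.11 (SE, adjusted p by limma = 0.744).

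Both enzymes that set malonyl-CoA, the inhibitor of the entry step, overlapped between strains. Mlycd, the decarboxylase that removes malonyl-CoA, had 4.11, 4.55 and 4.45 in the LETO rats 1 to 3, against 4.62, 4.50 and 4.59 in the OLETF rats 1 to 3. LETO 1 was lowest, LETO 2 lay above OLETF 2, and the difference was 0.20 ± 0.13 (SE, adjusted p by limma = 0.671). Acacb, the mitochondrial acetyl-CoA carboxylase that makes malonyl-CoA, had −1.56, −1.45 and −1.26 in the LETO rats 1 to 3, against −1.36, −1.46 and −1.50 in the OLETF rats 1 to 3. Here LETO 1 was again lowest and LETO 3 was highest, and the difference was −0.014 ± 0.11 (SE, adjusted p by limma = 0.986).

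The 8 genes of the beta-oxidation cycle had differences from −0.058 for Hadha to 0.19 for Hadh, with 5 positive and 3 negative. Of the acyl-CoA dehydrogenases, which open each turn for chains of different length, Acadvl (very long) had a difference of −0.053 ± 0.098, Acadl (long) 0.11 ± 0.12, Acadm (medium) 0.18 ± 0.12 and Acads (short) 0.021 ± 0.090. Their adjusted p by limma ranged from 0.682 for Acadm to 0.975 for Acads. Acadm, the one with the largest value of these 4, had 5.79, 6.13 and 6.03 in the LETO rats 1 to 3, against 6.29, 6.10 and 6.10 in the OLETF rats 1 to 3. OLETF 1 was highest and LETO 1 lowest, while OLETF 2 and OLETF 3 fell between LETO 3 and LETO 2. Hadh, the dehydrogenase for shorter hydroxyacyl chains, had 6.45, 7.08 and 7.05 in the LETO rats 1 to 3, against 7.11, 7.02 and 7.02 in the OLETF rats 1 to 3. LETO 1 stood apart below the other 5 arrays, which lay close together, and the difference was 0.19 ± 0.17 (SE, adjusted p by limma = 0.815). Acaa2, the thiolase that closes the turn, had 0.050 ± 0.092 and overlapping strains.

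Hadha and Hadhb encode the alpha and beta subunits of the mitochondrial trifunctional protein, which handles long chains. Hadha had 3.60, 4.27 and 4.07 in the LETO rats 1 to 3, against 3.96, 3.95 and 3.87 in the OLETF rats 1 to 3. On this brighter probe the LETO arrays spread widely, with LETO 1 lowest and LETO 2 highest, and the 3 OLETF arrays sat between them. The difference was −0.058 ± 0.17 (SE, adjusted p by limma = 0.964), and the further Hadha probe gave 0.0043 ± 0.097. That further probe did not show the LETO spread. It had 3.08, 3.13 and 3.12 in the LETO rats 1 to 3, against 3.25, 2.97 and 3.12 in the OLETF rats 1 to 3. Hadhb had 2.28, 2.43 and 2.51 in the LETO rats 1 to 3, against 2.57, 2.21 and 2.37 in the OLETF rats 1 to 3. Here OLETF held both the highest and the lowest array, and the difference was −0.023 ± 0.12 (SE, adjusted p by limma = 0.979). These 2 genes lie head to head, and in the RefSeq table for GRCr8 their start sites on chromosome 6 were 301 bases apart. The 200 bases that both of their promoter windows cover are shown because both subunits are members with differences near 0. They lie at chr6:31907551-31907750 on the plus strand, with CCGCCC, the reverse complement of the GC box GGGCGG, in capitals.
Hadha and Hadhb: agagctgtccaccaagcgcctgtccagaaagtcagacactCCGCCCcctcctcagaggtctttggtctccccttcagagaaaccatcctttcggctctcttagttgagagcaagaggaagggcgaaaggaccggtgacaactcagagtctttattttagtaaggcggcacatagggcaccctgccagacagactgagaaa

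The RefSeq GRCr8 table held a promoter window for 27 of the 32 members, from 250 bases before to 50 bases after the start. Motifs were searched as letters on both strands. GGGCGG, the GC box, was found in 14 of 27 member windows and in 33.1% of all 33469 windows. AAGGTCA, an extended single site of estrogen-related receptors, was found in Acacb and Hadhb, 2 of 27, and in 4.61% of all windows; it can overlap the receptor repeat described next. The direct repeat DR1 that PPAR and RXR recognise, searched as a copy of AGGTCA, any 1 base and a further AGGTCA, was found in 0 of 27 and in 0.0538% of all windows. With AGGNCA in place of both copies the counts were 0 of 27 and 0.415%. A match or its lack says only whether these letters stand in these windows.

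The auxiliary enzymes, which make double bonds of unsaturated fatty acids fit the cycle, were all 4 positive. Eci1, the mitochondrial enoyl-CoA isomerase, had 3.95, 4.23 and 4.16 in the LETO rats 1 to 3, against 4.47, 4.31 and 4.33 in the OLETF rats 1 to 3. All 3 OLETF arrays lay above all 3 LETO arrays, and the difference was 0.26 ± 0.11 (SE, adjusted p by limma = 0.386), with a 95% interval from 0.0070 to 0.51. Eci2, the isomerase found in peroxisomes and mitochondria, had 3.55, 3.95 and 3.88 in the LETO rats 1 to 3, against 4.11, 3.92 and 3.96 in the OLETF rats 1 to 3. OLETF 1 was highest, and OLETF 2 fell just below LETO 2, with a difference of 0.20 ± 0.13 (SE, adjusted p by limma = 0.656). Decr1, the dienoyl-CoA reductase of mitochondria, had 3.68, 4.66 and 4.43 in the LETO rats 1 to 3, against 4.94, 4.54 and 4.56 in the OLETF rats 1 to 3. LETO 1 was far below and OLETF 1 far above the other 4 arrays, among which LETO 2 was the highest. The difference was 0.42 ± 0.26 (SE, adjusted p by limma = 0.629), with a 95% interval from −0.18 to 1.03, which includes both 0 and a 2-fold difference. Ech1, a dienoyl-CoA isomerase, had 0.080 ± 0.088 with overlapping strains.

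Electrons from the acyl-CoA dehydrogenases pass to the flavoprotein subunits Etfa and Etfb and on to the dehydrogenase Etfdh. Etfa had 3.07, 3.10 and 3.02 in the LETO rats 1 to 3, against 3.28, 3.13 and 3.16 in the OLETF rats 1 to 3. The 3 OLETF arrays were above the 3 LETO arrays, and the difference between means was 0.13 ± 0.085 (SE, adjusted p by limma = 0.672). Its partner Etfb had 5.68, 6.17 and 6.17 in the LETO rats 1 to 3, against 6.05, 6.07 and 5.96 in the OLETF rats 1 to 3. LETO 1 was lowest and the other LETO arrays were the highest, so the strains overlapped, and the difference was 0.017 ± 0.15 (SE, adjusted p by limma = 0.989). Etfdh had a difference of 0.011 ± 0.093.

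Both peroxisomal members were positive and overlapped between strains. Ehhadh, the L-bifunctional enzyme and a classical PPAR-alpha target in liver, had −3.18, −2.33 and −2.86 in the LETO rats 1 to 3, against −2.58, −1.82 and −2.99 in the OLETF rats 1 to 3. OLETF 2 was the highest array and OLETF 3 the lowest but for LETO 1, so the strains overlapped widely. The difference was 0.33 ± 0.33 (SE, adjusted p by limma = 0.844), and without OLETF 2 it was 0.0098. Hsd17b4, the D-bifunctional enzyme, had 3.52, 3.96 and 3.74 in the LETO rats 1 to 3, against 4.00, 3.84 and 3.92 in the OLETF rats 1 to 3. LETO 1 was lowest and LETO 2 lay within the OLETF values, with a difference of 0.18 ± 0.13 (SE, adjusted p by limma = 0.715).

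The thioesterases, which split acyl-CoA back to a free fatty acid and coenzyme A, gave similar values for the cytosolic and the mitochondrial form. Acot1, the cytosolic form, had −1.05, −0.71 and −1.20 in the LETO rats 1 to 3, against −0.66, −0.90 and −0.66 in the OLETF rats 1 to 3. OLETF 1 and OLETF 3 were level and highest, and LETO 2 lay above OLETF 2. The difference was 0.25 ± 0.15 (SE, adjusted p by limma = 0.598). Acot2, the mitochondrial form, had 3.36, 4.02 and 3.74 in the LETO rats 1 to 3, against 4.04, 3.93 and 4.01 in the OLETF rats 1 to 3. LETO 1 was far below, and LETO 2 lay among the OLETF arrays. The difference was 0.29 ± 0.16 (SE, adjusted p by limma = 0.597), and the Acot2 probe printed above gave 0.22 ± 0.10. These genes are close relatives that lie near each other on chromosome 6. The Acot1 probe shared no run longer than 6 bases with either Acot2 probe, but probes were compared only with each other. Whether a probe of one gene also matches the transcript of the other was not tested, so separate readings of the genes are not shown.

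Uncoupling proteins are inner membrane carriers whose transcripts are known to follow fatty acid supply. Ucp3, the form of heart and skeletal muscle, had −0.91, 0.56 and −0.32 in the LETO rats 1 to 3, against −0.15, 0.026 and 1.01 in the OLETF rats 1 to 3. OLETF 3 was highest, LETO 2 was second, and LETO 1 was lowest, and the SD within each strain (0.74 in LETO and 0.62 in OLETF) was the largest of the members. The difference of 0.52 ± 0.43 (SE, adjusted p by limma = 0.785) was the largest of the members, and 93.5% of all genes had a smaller one, but its 95% interval ran from −0.49 to 1.53. Ucp2, the widely expressed form, had 2.08, 1.37 and 1.59 in the LETO rats 1 to 3, against 1.69, 1.72 and 1.70 in the OLETF rats 1 to 3. Here LETO 1 was the highest array and LETO 2 the lowest, while the 3 OLETF arrays were almost level, and the difference was 0.021 ± 0.17 (SE, adjusted p by limma = 0.988).

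**Figure D2:**
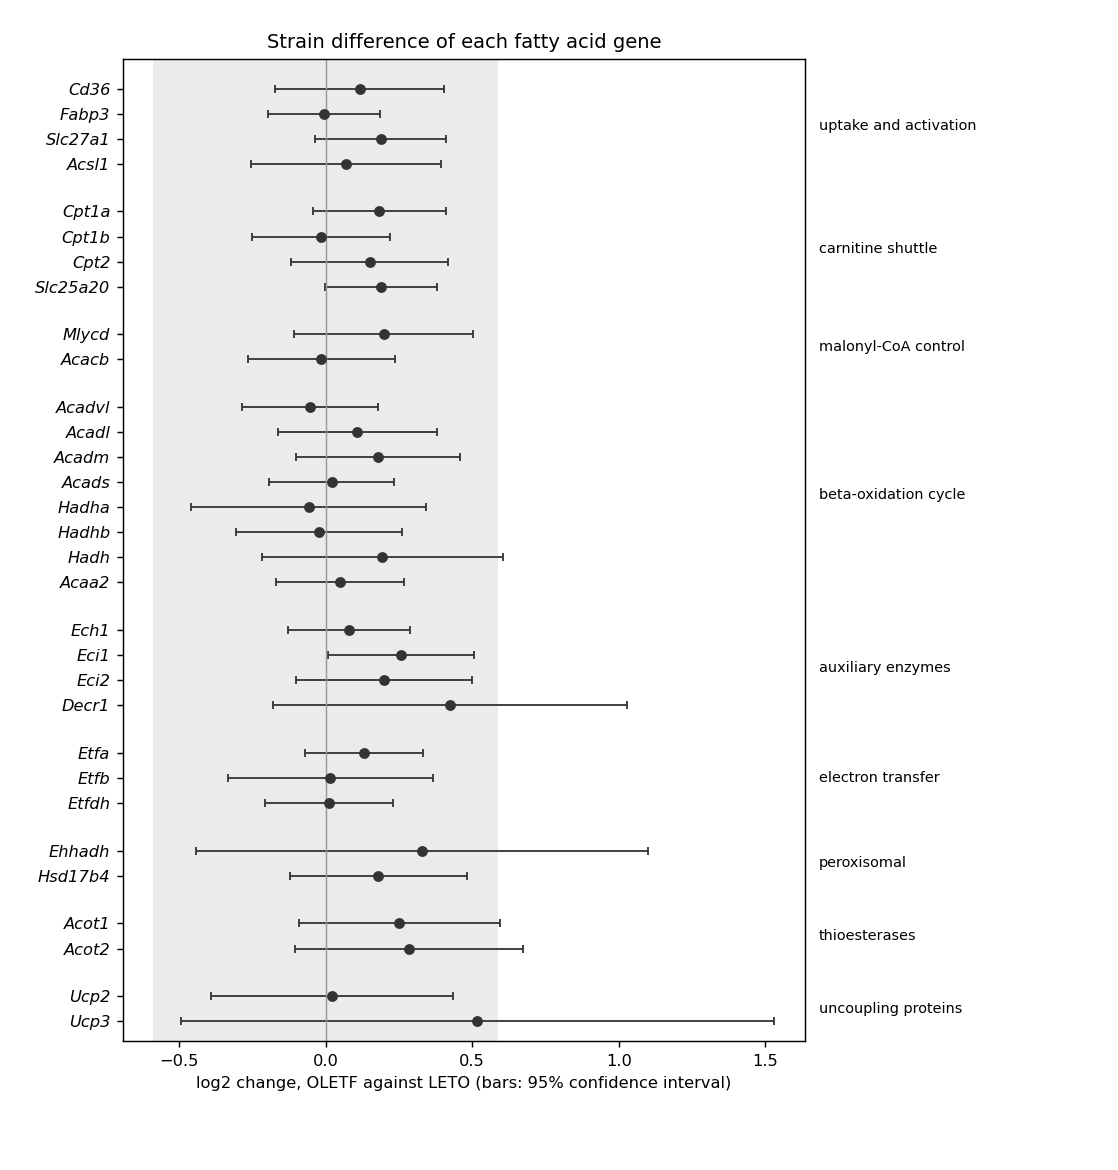
Points are log2 differences, OLETF against LETO, for the 31 tested genes, bars are their 95% confidence intervals from limma, and the grey band marks a 1.5-fold change either way. The interval of Eci1 alone lies wholly above 0, and those of 25 of 31 genes lie inside the band.

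The intervals come from the fit without slide, so they do not bound a strain difference apart from the slide difference. Within that fit they set how large a difference these 6 arrays could leave unseen. The 95% interval lay wholly inside a 1.25-fold change either way for 9 of 31 members, inside a 1.5-fold change for 25 and inside a 2-fold change for 28. The 3 genes whose intervals reached past 2-fold were Decr1, Ehhadh and Ucp3. For Fabp3 the interval ran from 0.872-fold to 1.14-fold and for Cpt1b from 0.840-fold to 1.17-fold.

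Compared step by step, as a description with no test, the medians with all 6 arrays were highest in the steps outside the core cycle. The median log2 difference was 0.27 for the thioesterases, 0.27 for the uncoupling proteins, 0.26 for the peroxisomal enzymes and 0.23 for the auxiliary enzymes. It was 0.17 for the carnitine shuttle, 0.093 for uptake, 0.092 for malonyl-CoA control, 0.035 for the beta-oxidation cycle and 0.017 for electron transfer. Several of these steps hold only 2 genes, and their order rests on single rats. The uncoupling median was 0.093 without OLETF 3 and 0.043 with slide as a block, the lowest of the steps in that fit. The peroxisomal median was 0.12 without OLETF 2 and 0.10 without LETO 1, and the auxiliary median was 0.11 without LETO 1. Within LETO the step medians also differed between rats. For the auxiliary enzymes, as deviations from the LETO mean, the LETO rats 1 to 3 had medians of −0.20, 0.14 and 0.068, and the OLETF rats 1 to 3 had 0.33, 0.16 and 0.19. For the beta-oxidation cycle the LETO rats had −0.16, 0.13 and 0.035, and the OLETF rats 0.14, 0.042 and −0.0021.

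**Figure D3:**
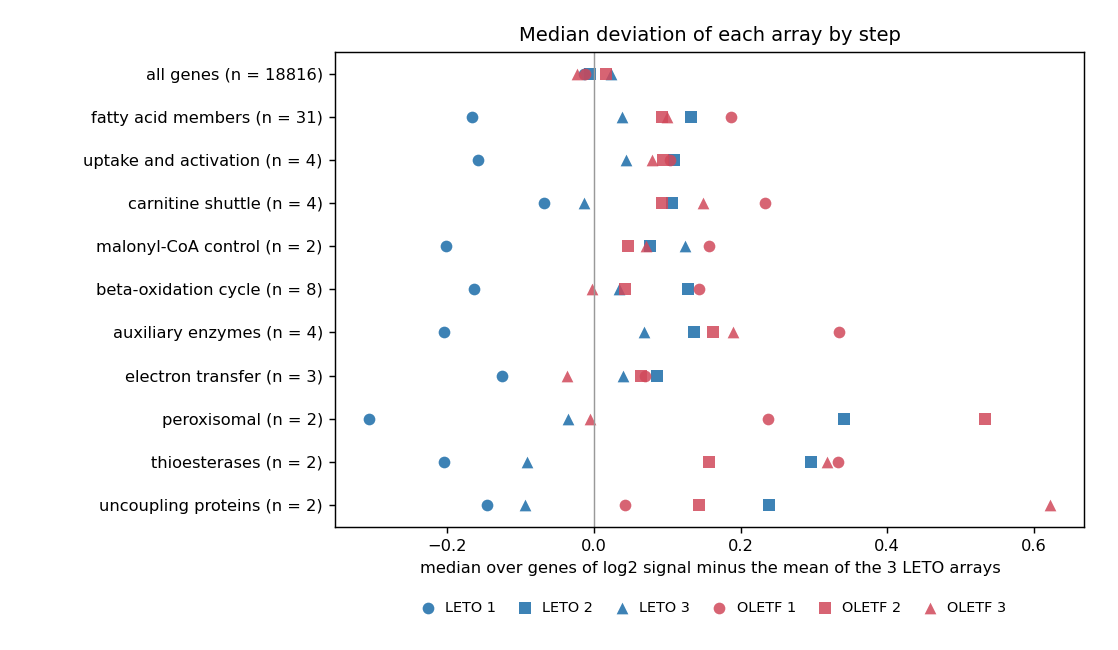
Each point is the median, over the genes of a step, of 1 array's log2 signal minus the mean of the 3 LETO arrays. The median over all genes stays within 0.024 of 0 on every array, while the fatty acid genes run from −0.17 in LETO 1 to 0.19 in OLETF 1, with LETO 2 at 0.13 above OLETF 2 at 0.093 and OLETF 3 at 0.10.

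Much of the spread among these genes lay between LETO rats. LETO 1 was the lowest of the 6 arrays for 23 of 31 members, or 74.2%, where it was the lowest for 28.7% of all genes. OLETF 1 was the highest for 16 of 31, or 51.6%, and for 12% of all genes. Both counts moved with the scaling. For LETO 1 the count was 18 after quantile normalization (30.4% of all genes) and 24 after median scaling (32.3%). For OLETF 1 it was 13 (11.3% of all genes) and 16 (14.2%). The SD over the LETO rats exceeded that over the OLETF rats for 26 of 31 members, or 83.9%, beside 63.7% of all genes. The median SD of the members was 0.18 in LETO and 0.073 in OLETF. For 29 of 31 members the range of the LETO values was wider than the difference between strains, beside 81.2% of all genes. Slc25a20 and Etfa were the exceptions.

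Without LETO 1 the values of the core genes were mostly lower. The median of all members was then 0.059, with 19 of 31 positive. The median of the cycle moved from 0.035 to −0.021, uptake from 0.093 to −0.023, electron transfer from 0.017 to −0.052 and malonyl-CoA control from 0.092 to −0.0089. Decr1 had 0.13 without LETO 1, Hadh had −0.013, Cd36 had −0.00051 and Hadha had −0.25. The Hadha value is that of its brighter probe, and the further probe did not show the low LETO 1. Slc25a20, Cpt1a, Slc27a1 and Etfa kept values of 0.21, 0.20, 0.23 and 0.14. The thioesterase median was 0.17.

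With slide as a block the strain difference came from the first slide alone, which is OLETF 1 against the 3 LETO arrays. The members' median was then 0.19, with 28 of 31 positive, and the lowest adjusted p by limma was 0.688, for Eci1. Decr1 had 0.69, Eci1 0.36, Acadm 0.31, Slc25a20 0.23 and Cpt1b 0.042 in that fit. Ucp3 had 0.074, since its highest array, OLETF 3, lay on the other slide. OLETF 1 was also the highest array for 16 members, so these values describe that rat.

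**Figure D4:**
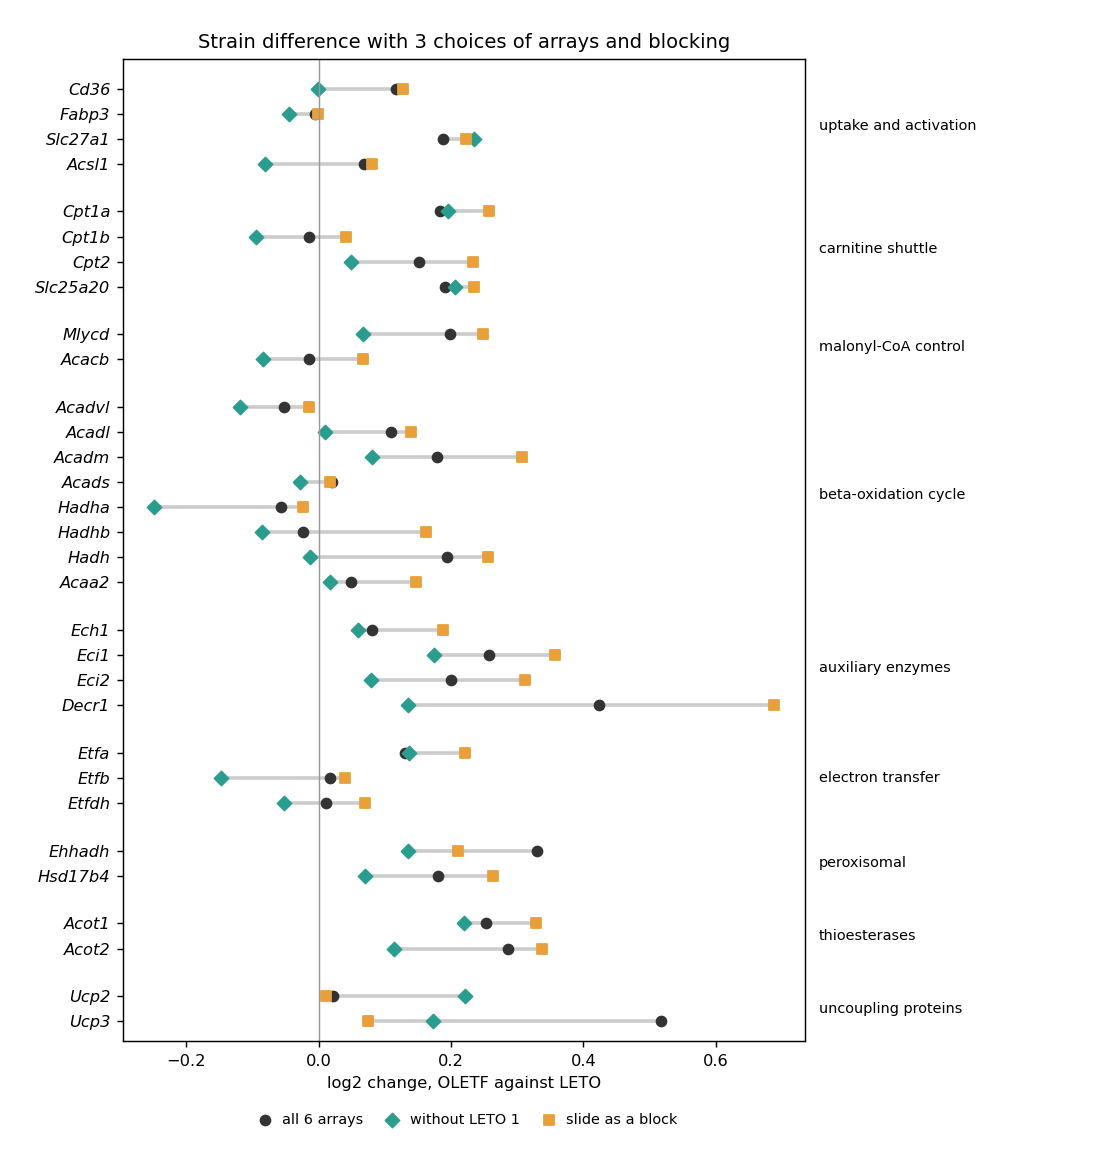
For each of the 31 tested genes the log2 difference, OLETF against LETO, is plotted with all 6 arrays (black), without LETO 1 (green) and with slide as a block (orange). Leaving out LETO 1 gives 12 negative genes in place of 6, and the slide block gives 3.

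OLETF lay wholly above LETO for 4 of 31 members, Eci1, Etfa, Slc25a20 and Slc27a1, or 12.9%, beside 8.92% of all genes. OLETF lay wholly below LETO for 0 of 31, beside 8.43% of all genes. The first count moved with the scaling. It was 12 after quantile normalization, 9 after normexp background correction followed by quantile normalization, 7 in the deposited value table and 4 after median scaling, while the share of all genes stayed between 9.7% and 10.5% in these 4. With the 75th percentile taken over spots in place of probes the count was 8, beside 9.1% of all genes. It also moved with single arrays, being 16 without LETO 2, beside 12.4% of all genes, and 8 without OLETF 2, beside 12.8%. Without LETO 1 there were 5 members above, beside 17.2% of all genes, and 5 below, beside 21.8%.

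For 8 members the array carried 10 spots of the same probe, whose SD measures only the spread within 1 array. These were Cpt1a, Cpt2, Acadm, Hadhb, Eci2, Decr1, Acot1 and Ucp2. The SD over the 10 spots of 1 array ran from 0.019 to 0.081 on the log2 scale. The SD between rats of a strain ran from 0.014 to 0.51 and exceeded that of the spots in both strains for 7 of the 8 genes. Ucp2 was the exception, since its 3 OLETF arrays differed by less than the spots did. For Decr1 the SD between LETO rats was 0.51, against at most 0.081 between its spots. Each rat had 1 array, so the SD between rats also holds differences between arrays, such as labelling and hybridisation.

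Of 13 other mitochondrial oxidation genes tested, 0 passed as higher and 1 as lower in OLETF, beside 1.5% and 1.05% of all genes. Of the 13, 5 were positive and 8 negative, with a median of −0.067. At an unadjusted p under 0.05 by limma 1 was higher and 3 were lower, beside 12.4% of all genes in either direction. OLETF lay wholly above LETO for 1 and wholly below for 3, beside 8.92% and 8.43% of all genes. The 1 that passed was Acadsb, the short/branched-chain dehydrogenase that also serves isoleucine breakdown. Acadsb had 0.40, 0.67 and 0.99 in the LETO rats 1 to 3, against −0.21, −0.43 and −0.35 in the OLETF rats. The strains did not overlap, and Acadsb fell by 1.02 ± 0.16 (SE, adjusted p by limma = 0.0189). That call was lost with slide as a block (−0.90, adjusted p = 0.287) and when LETO 2 or a single OLETF array was left out (values from −1.08 to −0.97, adjusted p from 0.0550 to 0.109). It was also lost with age as a covariate (−0.97, adjusted p = 0.0507) and with no filter on dim probes (adjusted p = 0.0769).

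Of 17 other peroxisomal genes tested 10 had positive values, with a median of 0.032. The lists of uptake, carnitine and thioesterase genes held no call, beside 2.55% of all genes. Of 14 other uptake and activation genes 0 passed and 11 had positive values, with a median of 0.092. Among these, 1 was higher and 1 lower at an unadjusted p under 0.05 by limma, beside 12.4% of all genes in either direction. OLETF lay wholly above LETO for 3 and wholly below for 1, beside 8.92% and 8.43% of all genes. Slc27a2, the transporter FATP2, had −0.67 (adjusted p by limma = 0.155) and was well above background on 2 of 3 OLETF arrays, and Slc27a5, the transporter FATP5 of liver, had 0.31. Of 13 other carnitine and malonyl-CoA genes 0 passed, with a median of 0.027. In this list 3 were higher and 0 lower at an unadjusted p under 0.05 by limma, beside the same 12.4% of all genes. OLETF lay wholly above LETO for 3 and wholly below for 1, beside 8.92% and 8.43%. Cpt1c, the brain form of the palmitoyltransferase, had 0.57 (adjusted p by limma = 0.0829) and Acaca, the cytosolic carboxylase, had −0.24. Of 9 other thioesterases and uncoupling proteins 0 passed, with a median of 0.022, and Them4 had −0.24 and Acot4 0.23. For 0 of these 9 was the unadjusted p by limma under 0.05, and the strains overlapped for all 9. Ucp1, the uncoupling protein of brown fat, was not well above background on any array.

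Cell type markers were read beside these values, since in bulk tissue fewer cells of a type and less RNA per cell cannot be told apart. The cardiomyocyte genes were negative in 10 of 10 cases, at a median of −0.11, and none passed the test. Their summed level, in multiples of each array's 75th percentile, ran from 2591 to 2944 in LETO and from 2436 to 2920 in OLETF. The endothelial sum ran from 26.7 to 30.6 in LETO and from 30.6 to 34.7 in OLETF, and the fibroblast sum from 62.9 to 82.9 and from 79.3 to 91.5. Both sums overlapped between strains, and in each list 4 genes were positive, 2 were negative and 0 passed the test. The endothelial sum rests mainly on Kdr (0.25), while Cdh5 and Tek each had −0.10. The fibroblast sum rests mainly on Dcn (0.40) and Col1a2 (0.13), while Col1a1 had −0.059 and Col3a1 −0.022. The smooth muscle sum ran from 3.14 to 6.61 in LETO and from 2.56 to 3.53 in OLETF. The atrial sum ran from 147 to 182 in LETO and from 131 to 150 in OLETF. That sum rests mainly on Myl4 and hides genes that varied widely between rats. Myl7 had 2.96, 5.15 and 0.54 in the LETO rats 1 to 3, against 3.85, −0.72 and −0.57 in the OLETF rats 1 to 3. Sln had −4.04, 1.68 and −0.23 in the LETO rats, against 1.25, −4.05 and −1.77 in the OLETF rats. All 4 atrial genes had negative differences, and 0 passed the test. Of 6 adipocyte genes 5 were on the array, 1 was well above background on all 6 arrays and Cidec was above it on none, with sums from 1.94 to 2.79 in LETO and from 1.87 to 2.39 in OLETF. Cidea, the one brown fat marker above background on all arrays, belonged to a list whose sum was 18.4, 24.6 and 20.5 in the LETO rats 1 to 3, against 28.4, 22.9 and 24.3 in the OLETF rats. Its lowest and highest arrays, LETO 1 and OLETF 1, were those of many fatty acid genes. The red blood cell sum was 16.3 and 22.5 in LETO 1 and LETO 2 and between 6.27 and 7.75 in the other 4 arrays. Hbb and Hba-a2, the haemoglobin genes tested, had −2.22 and −0.94 (adjusted p by limma = 0.411 and 0.304). Both were opposite in sign to Slc4a1 of the same list. Within that list Slc4a1, the anion exchanger, rose by 3.19 (adjusted p by limma = 0.00589), a call lost with slide as a block (2.88, adjusted p = 0.116). Among liver genes Ttr fell by 0.85 (adjusted p by limma = 0.0300), with Alb and Apoa1 above background on no array. The Ttr call was lost without any 1 of the 6 arrays (adjusted p from 0.0514 to 0.107). The macrophage sums overlapped, at 1.27 to 1.67 in LETO and 1.33 to 1.63 in OLETF. The skeletal muscle sums overlapped too, at 0.780 to 0.964 and 0.756 to 0.875. The part of these cell types in the values of the fatty acid genes was not tested.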

How the data were processed

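Left ventricular RNA of 3 OLETF and 3 LETO rats was hybridised, per the labels' protocols, to Agilent Rat GE 4x44K v3 arrays in 1 colour (Cy3). The authors deposited 1 scanner table of spot intensity values per array, background-subtracted by Agilent's software (gProcessedSignal). The file headers name Feature Extraction 10.7.3.1, and the submitters' processing notes name version 9.1. Probe coordinates are on rn4, per the file headers.

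Control spots and outlier flags were left out, spots of a probe were averaged as log2, and each array's 75th percentile over its 30367 probes was subtracted. Testing required that a probe be well above background in all 3 rats of a strain, LETO or OLETF, a filter that 21484 probes passed. The brightest of these stood for each of 18816 genes. limma 3.58.1 in R 4.3.3 (lmFit and eBayes) was fitted to all of them, with Benjamini-Hochberg adjustment over all at 0.05. The members and the pathway and marker lists were chosen with earlier results of these data known. The text names all members, and of each pathway list the genes past the test and at most 2 others with the largest change; 1 pathway result is not reported here. The scripts were tested on simulated data. Replicate numbers follow the sample titles, while the source name of LETO 2 gives replicate 1. These numbers were not used to pair the rats in the main fit. Deviations of same-numbered rats correlated at −0.088, −0.14 and −0.0080, which shows no shared deviation over all genes but cannot exclude a pairing. The number of arrays limits the precision. Alternatives covered scaling, background correction, the deposited value table, filters, probe rule, variance model, array weights, age, slide, replicate block and leaving out each array. The 75th percentile over spots was added after seeing the data. Promoter windows come from RefSeq (GRCr8) and are used for names and letters only.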

Additional observations from a re-analysis of the deposited data

How the results depend on the processing

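No member was called under any alternative, and the lowest adjusted p by limma among the members was 0.0719, for Slc25a20 with array weights. With normexp background correction followed by quantile normalization Eci1 had an adjusted p of 0.0909, and 9 of 31 members had an unadjusted p under 0.05, beside 12.5% of all genes. The members' median stayed positive in every fit, between 0.059 without LETO 1 and 0.20 without LETO 2, and was 0.071 with array weights, which gave LETO 1 the lowest weight, 0.20. Median scaling moved the median of all genes from −0.0084 to 0.010 and the positive members from 25 to 28. With 1 array left out the uptake median ranged from −0.023 (without LETO 1) to 0.14 (without LETO 2). With age as a covariate it was 0.16, and the electron transfer median was 0.11; the cause was not tested. Over all genes the calls higher and lower in OLETF were 149 and 91 with no filter on dim probes, 875 and 825 with array weights, 52 and 53 with slide as a block and 36 and 21 on the slide with both strains. Leaving out 1 array gave from 110 (without OLETF 2) to 374 (without LETO 1) higher calls and from 87 (without OLETF 3) to 241 (without LETO 1) lower calls. The replicate block, with numbers not used as pairs in the main fit, gave 166 higher calls and 0 members called. Acadsb then had an adjusted p by limma of 0.0553. With 3 rats per strain the intervals of Decr1, Ehhadh and Ucp3 reach past 2-fold, and slide, age and strain were not balanced.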
